A study of Homo sapiens with 12 samples.

Results

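The 34 genes described here encode the proteins that bring glucose into the cell and convert it to pyruvate, together with the enzymes that make, break down or oppose the key intermediates of that route. They were chosen by name and function, with earlier results of these data known, and are 34 of 59098 annotated genes on chromosomes 1 to 22 and X. Each was followed as the peaks of open chromatin that overlapped its RefSeq gene span (GRCh38.p14) or the 5 kb on either side, a stretch called its window below.

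Chromatin accessibility was measured by ATAC-seq, in which a transposase cuts and tags open DNA, in MIAPaCa2, an established human pancreatic ductal adenocarcinoma line that relies heavily on glycolysis. Parental MIAPaCa2 cells and an oxamate-resistant line derived from them were each profiled untreated and after treatment with oxamate, a pyruvate analogue that inhibits lactate dehydrogenase A (LDHA), which gave 4 groups of 3 libraries. The resistant line was the population of parental cells that survived weeks in oxamate, a polyclonal population per the study's methods, so it stands for 1 selection in 1 cell line. By the same methods the treatment before ATAC-seq was short beside that selection, and untreated cells received phosphate-buffered saline. Nothing in the labels says whether the 3 libraries of a group came from separate cultures, so p-values measure only the spread between these libraries, which may be technical.

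The lists held 45748 to 62414 usable peaks per library, and the number of reads behind them is unknown. The bases covered by all peaks differed between groups, with 23.7 Mb ± 2.64 (SD, n = 3) in untreated parental cells, 17.2 Mb ± 2.97 in treated parental cells, 28.9 Mb ± 4.28 in untreated resistant cells and 26.6 Mb ± 4.77 in treated resistant cells. The smallest peak in each list was 67 to 87 bp wide in the parental libraries and 94 to 124 bp in the resistant ones, with no overlap. Phenotype therefore moved with a technical property of the lists, and the part of this property in any difference between resistant and parental cells cannot be told apart from phenotype. For tests, covered bases were scaled to 1 Mb of all bases covered in the same library. A peak lay within 1 kb of a gene end in 12 of 12 libraries at KRT8, KRT18, VIM and ZEB1, in 1 library at EPCAM and in none at CDH1, PTPRC, CD3E, DCN, PECAM1 and CDH5, so of the epithelial markers the keratins were open and EPCAM and CDH1 largely closed. CDKN2A, which this line has lost, had no peak in its window in any library. SPI1, COL1A1 and COL1A2, which mark blood cells and fibroblasts, had a peak in 12 of 12 libraries.

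Glycolysis begins when glucose transporters (SLC2A family) let glucose through the plasma membrane and hexokinases trap it as glucose 6-phosphate. Phosphofructokinase 1 makes the committed step to fructose 1,6-bisphosphate, under the control of fructose 2,6-bisphosphate, and the lower enzymes then split the sugar, recover ATP and end at pyruvate. LDHA, the enzyme that oxamate blocks, turns pyruvate into lactate and so renews the NAD+ that the GAPDH step needs. In tumour cells many of these genes are known targets of the hypoxia-inducible factor HIF-1 and of MYC, both of which bind short core sequences near promoters.

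The promoters of 5 genes that stand for successive steps are given in sequence. They are the glucose transporter SLC2A1 (GLUT1; chr1:42958869-42959118, minus strand), hexokinase HK2 (chr2:74833877-74834126, plus), the platelet-type phosphofructokinase PFKP (chr10:3068377-3068626, plus), phosphoglycerate kinase PGK1 (chrX:78103998-78104247, plus) and pyruvate kinase PKM (chr15:72231191-72231440, minus). Each line gives the 250 bases before the annotated RefSeq start of GRCh38.p14 that was best covered by peaks, 5′ to 3′. Capitals mark the hypoxia response core (ACGTG or GCGTG) and the GC box GGGCGG, on either strand.

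SLC2A1: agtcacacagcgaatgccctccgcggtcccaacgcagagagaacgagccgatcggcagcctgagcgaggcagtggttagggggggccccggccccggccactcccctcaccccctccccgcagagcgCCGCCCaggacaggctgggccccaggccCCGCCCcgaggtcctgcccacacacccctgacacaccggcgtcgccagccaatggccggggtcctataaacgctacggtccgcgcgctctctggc

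HK2: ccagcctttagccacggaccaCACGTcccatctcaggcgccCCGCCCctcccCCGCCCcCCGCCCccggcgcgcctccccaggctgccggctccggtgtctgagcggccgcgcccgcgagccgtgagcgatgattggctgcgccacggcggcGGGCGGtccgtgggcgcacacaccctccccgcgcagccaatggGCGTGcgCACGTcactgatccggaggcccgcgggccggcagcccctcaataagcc

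PFKP: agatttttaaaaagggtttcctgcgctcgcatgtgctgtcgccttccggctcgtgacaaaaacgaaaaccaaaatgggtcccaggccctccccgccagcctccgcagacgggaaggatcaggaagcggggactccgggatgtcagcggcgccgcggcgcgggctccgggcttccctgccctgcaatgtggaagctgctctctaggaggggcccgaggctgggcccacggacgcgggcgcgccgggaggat

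PGK1: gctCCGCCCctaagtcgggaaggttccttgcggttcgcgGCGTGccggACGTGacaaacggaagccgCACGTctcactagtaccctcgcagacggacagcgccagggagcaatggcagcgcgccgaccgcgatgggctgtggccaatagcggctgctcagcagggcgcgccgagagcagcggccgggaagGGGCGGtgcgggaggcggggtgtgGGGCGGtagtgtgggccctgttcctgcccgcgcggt

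PKM: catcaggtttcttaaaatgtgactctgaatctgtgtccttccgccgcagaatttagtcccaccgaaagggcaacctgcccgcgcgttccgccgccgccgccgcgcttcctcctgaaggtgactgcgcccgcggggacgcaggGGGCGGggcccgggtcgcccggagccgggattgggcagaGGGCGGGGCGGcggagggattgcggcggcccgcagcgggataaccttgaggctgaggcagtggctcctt

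HK2 and PGK1 each held 3 hypoxia response cores, and SLC2A1, PFKP and PKM held none in this window. GC boxes numbered 2 at SLC2A1, 4 at HK2, 3 at PGK1 and 3 at PKM, where neighbouring matches can share bases, and 0 at PFKP. The hypoxia core stood in 43.2% of all 35097 RefSeq promoters and in 49.1% of the 55 promoters of 32 of the glycolytic genes. The GC box stood in 42.6% of all promoters and 50.9% of theirs. The E-box CACGTG, which contains ACGTG and is also read by MYC, stood in 6.34% of all and 10.9% of theirs and in none of the 5 printed. These letters are common, and a match is a description of the sequence only.

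The printed stretches of SLC2A1, PGK1 and PKM lay inside a peak over all 250 bases in every library. The HK2 stretch was covered over 250 bases in the 9 libraries other than treated parental and over 153, 165 and 241 bases in those 3. The PFKP stretch was covered over 250 bases in 10 libraries, over 172 in untreated parental replicate 3 and over 83 in treated parental replicate 3. No printed promoter was without a peak in any library, which follows in part from printing the best covered start. Other starts of PFKP were less constant. At 3067970 on chromosome 10 a peak touched the promoter in all untreated parental and treated resistant libraries and in none of the others. The overlap was 300, 300 and 50 bases in the untreated parental and 5, 17 and 300 bases in the treated resistant replicates. Peaks of 175 and 225 bp in untreated resistant replicates 1 and 3 lay beside this promoter without reaching it. At 3069189 a peak touched the promoter in 6 libraries, and both starts had a peak within 1 kb in 12. The start at 3104609 had one within 1 kb in 4.

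Of the 32 genes with an annotated start in the promoter table, 19 (59.4%) had a peak within 1 kb of a start in 12 of 12 libraries, against 58.6% of 15812 protein-coding genes. In 8 (25%) no library had one, against 26.4%. By presence at a start the glycolytic genes were thus close to other genes. The 8 genes with no peak near a start in the table were FBP1 and FBP2, which oppose phosphofructokinase in glucose synthesis, the liver glucose transporter SLC2A2, the hexokinases HK3 and HKDC1, the liver and red cell pyruvate kinase PKLR, and the testis forms GAPDHS and PGK2. PGK2 had no peak anywhere in its window in any library, the only one of the 34 of which this holds. At PKLR the 5′ end of the gene span, upstream of the starts in the table, had a peak in 12 libraries at the top 2.00% to 6.06%, in a region that also overlaps FDPS and its start.

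Open starts spanned the whole range of peak strength. Within each list peaks were ranked by the authors' -log10 q, with the strongest at the top. The start of BPGM, which makes the regulator 2,3-bisphosphoglycerate, ranked in the top 0.17% to 1.18% of peaks, and that of TIGAR, a fructose 2,6-bisphosphatase, in the top 0.31% to 2.04%. PGK1 lay between the top 1.97% and 11.4% and ENO1 between 6.00% and 14.1%. Among the starts open in every library TPI1 (30.0% to 55.7%), PFKP (32.2% to 66.5%) and the start of GPI in the table (34364992 on chromosome 19, 49.3% to 79.3%) stood at the weak end. The 5′ end of the GPI gene span, at 34359718, carried a separate peak at the top 1.08% to 8.61%.

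Alternative starts of 1 gene were not equally open. HK1 has 7 annotated starts in the table, and those at 69318181 and 69319064 on chromosome 10, whose best peak had the same rank at both in each library, had a peak within 1 kb in 12 of 12 libraries, against 1 library at 69334614 and none at the other 4. At PFKM, the muscle-type phosphofructokinase, all starts of the upstream cluster had a peak in 12 libraries and the start at 48122647 on chromosome 12 in none. PFKFB3, the strongest maker of fructose 2,6-bisphosphate, was open at both its starts in 12 libraries. The annotated start of the main phosphoglycerate mutase PGAM1 had a peak within 1 kb in 5 of 12 libraries, while the 5′ end of its gene span had one in 12 of 12 at the top 5.16% to 14.6%, in a region that overlaps LOC644215.

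In all, 244 merged regions lay in the windows, and 62 (25.4%) of them were present in 12 libraries, against 13.6% of 178040 regions genome-wide. The genome-wide share also counts regions away from genes, so the 2 shares are over unlike sets. Of the 62, 22 lay at a start of the gene in the promoter table, 9 at a start of another gene only and 31 at no start in it. A start missing from that table cannot be counted. The table lacks SLC2A3 and PFKFB2, whose windows held 2 regions each in 12 libraries. PFKFB3 held the most, 27 regions with 6 in 12 libraries. The constant region beyond the 3′ end of SLC2A1, chr1:42924023-42924851, was stronger than the SLC2A1 promoter, ranking in the top 1.56% to 6.94% against 10.1% to 28.1%. Shared territory limits the reading at some genes. The peak at the 3′ end of ENO2 overlapped ATN1, and the constant peaks near PFKL and GPI included ones over AIRE and PDCD2L.

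**Figure D1:**
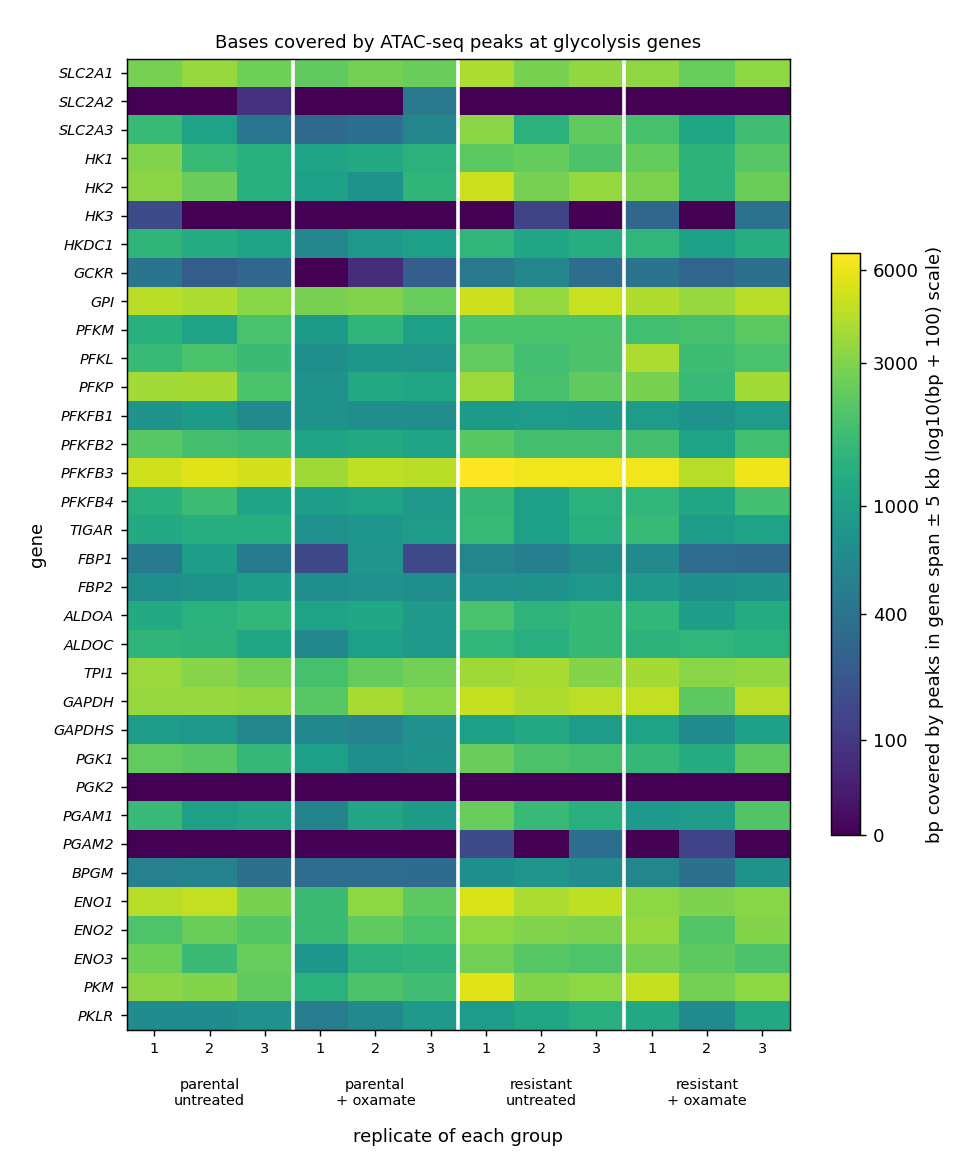
Bases covered by peaks in the gene span and 5 kb each side (colour, log10(bp + 100) scale) for 34 genes (rows, in order of the pathway) in 12 libraries (columns, 3 per group). PFKFB3, the gene with the longest span, is brightest in all groups, and PGK2 is at 0 throughout. The 3 treated parental columns are darker at most genes, as they are over all peaks of those libraries (17.2 Mb against 23.7 Mb untreated).

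Treatment of parental cells lowered the share of covered bases at PFKP, and at no other of the 30 genes with enough covered bases to test. SLC2A2, HK3, PGK2 and PGAM2 had too few. PFKP fell to 0.479 of the untreated value in the fit, which adds 5 bp per Mb to each scaled value. Its mean scaled values were 59.2 bp per Mb treated and 131 bp per Mb untreated. Phosphoglycerate kinase PGK1 and the liver-type phosphofructokinase PFKL had the next largest differences without passing the test. Unscaled, the mean covered bases of all 30 were lower in treated parental cells, as was the total of those libraries.

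In covered bases per library (replicates 1 to 3), PFKP held 3754, 3781 and 1984 bp in untreated parental cells, 760, 1183 and 1122 bp in treated parental cells, 3601, 1902 and 2354 bp in untreated resistant cells and 2860, 1657 and 3743 bp in treated resistant cells. The 3 treated parental libraries were the lowest of the 12, and the other groups overlapped one another. After scaling, the difference between treated and untreated parental cells was -1.06 on the log2(bp per Mb + 5) scale (SE 0.212, 95% interval -1.52 to -0.61, adjusted p = 0.0242, limma with Benjamini-Hochberg adjustment over 25245 genes). This made 1 of 30 (3.33%) lower, against 1.77% of all genes called lower, and 0 higher, against 0.139%. Without untreated parental replicate 1 or replicate 2 the adjusted p from limma rose to 0.102 or 0.109, and with the peaks of -log10 q under 3 dropped it was 0.0821.

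Within 1 kb of its starts 1940, 1571 and 613 bp were covered in untreated and 537, 484 and 167 bp in treated parental cells, and elsewhere in the window 1814, 2210 and 1371 bp against 223, 699 and 955 bp. Unscaled, both parts were lower in every treated library than in any untreated one. Scaled, the part near the starts overlapped, with 77.5, 61.6 and 29.6 bp per Mb untreated and 39.0, 25.0 and 9.13 bp per Mb treated, and the rest of the window did not, with 72.5, 86.7 and 66.2 bp per Mb against 16.2, 36.0 and 52.2 bp per Mb. In resistant cells the difference with oxamate was 0.16 (log2, 95% interval -0.29 to 0.62), and the difference between the responses of the 2 phenotypes was 1.23 (95% interval 0.58 to 1.87), which did not pass the interaction test (adjusted p = 0.177, limma).

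The window of PGK1 held 2405, 2200 and 1593 bp in untreated parental, 997, 721 and 768 bp in treated parental, 2543, 2028 and 1889 bp in untreated resistant and 1587, 1281 and 2339 bp in treated resistant cells. Within 1 kb of its start the values overlapped, with 854, 727 and 715 bp untreated and 872, 637 and 768 bp treated in parental cells. Elsewhere in the window 1551, 1473 and 878 bp were covered in untreated and 125, 84 and 0 bp in treated parental cells, which did not overlap after scaling either (42.4 to 62.0 against 0 to 9.07 bp per Mb). The start kept its peak while most covered bases of the gene body and 3′ flank were missing from the treated parental lists. For the whole window the scaled difference was -0.77 (log2, 95% interval -1.24 to -0.29) and did not pass (adjusted p = 0.0958, limma).

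**Figure D2:**
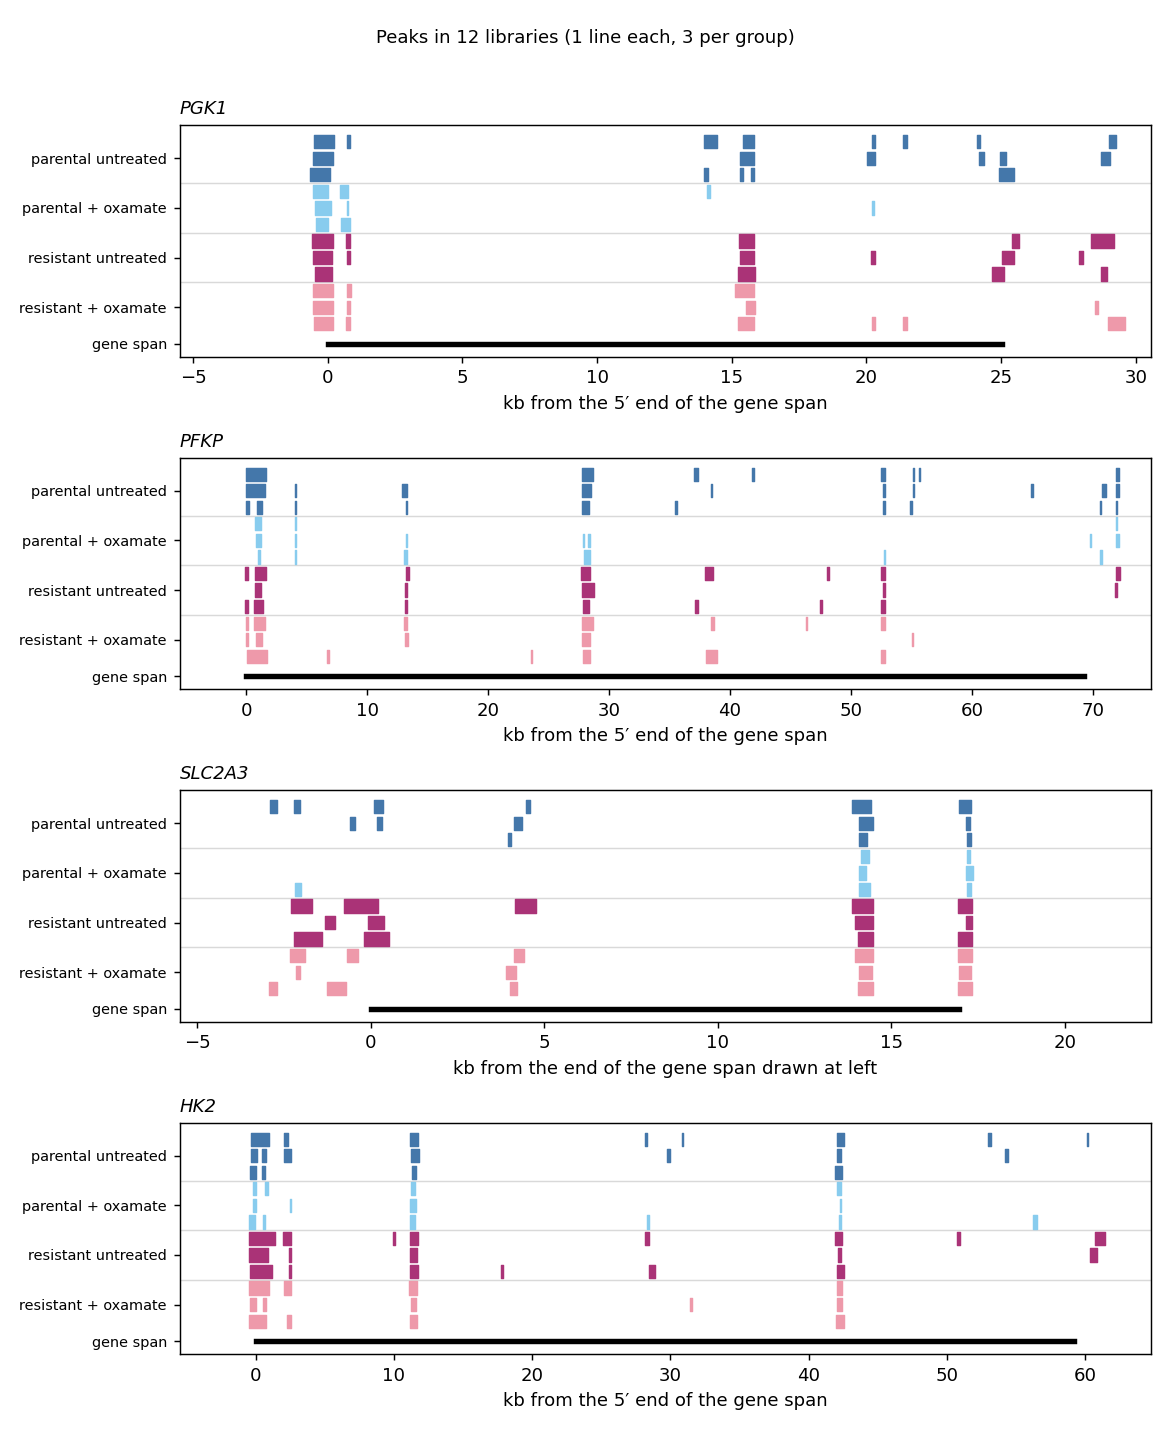
Peaks along the windows of PGK1, PFKP, SLC2A3 and HK2 (horizontal axis in kb from the 5′ end of the gene span, for SLC2A3 from its lower-numbered end), with 1 line per library and 3 lines per group. At PGK1 the peak at the start stands in all 12 libraries, while the gene-body peak near 15 kb is missing from the 3 treated parental libraries and the peaks within 1 kb of the 3′ end from the 6 treated ones.

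Of the other phosphofructokinase genes, PFKL held 1626, 1999 and 1686 bp in untreated parental, 719, 849 and 807 bp in treated parental, 2394, 1849 and 2008 bp in untreated resistant and 3993, 1756 and 1963 bp in treated resistant cells. The treated parental libraries were again the lowest 3, with a scaled difference of -0.63 (log2, 95% interval -1.04 to -0.22, adjusted p = 0.111, limma). PFKM held 1372, 1049 and 1950 bp, 914, 1513 and 1011 bp, 1975, 1995 and 1980 bp, and 1828, 1926 and 2274 bp in the same order of groups, and its parental groups overlapped.

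Among the genes called in no contrast, the transporter SLC2A1 held 2824, 3528 and 2634 bp, 2379, 2760 and 2546 bp, 3981, 2853 and 3408 bp, and 3307, 2493 and 3272 bp in untreated parental, treated parental, untreated resistant and treated resistant cells, and HK1 held 3017, 1651 and 1351 bp, 1089, 1226 and 1426 bp, 2279, 2433 and 2003 bp, and 2426, 1448 and 2219 bp. Both overlapped between untreated and treated cells of either phenotype. HK2, the inducible hexokinase of tumours, held 3205, 2539 and 1315 bp, 998, 768 and 1509 bp, 4864, 2783 and 3420 bp, and 2897, 1436 and 2567 bp. Its highest value was an untreated resistant library and its lowest a treated parental one, and no contrast of its scaled covered bases passed.

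Of the regulators of phosphofructokinase, PFKFB3 held 5001, 5498 and 5115 bp, 3698, 4482 and 4384 bp, 6822, 6203 and 6203 bp, and 6212, 4268 and 6074 bp in the same order. PFKFB4 held 1384, 1728 and 1087 bp, 965, 1068 and 890 bp, 1595, 1009 and 1388 bp, and 1532, 1137 and 1843 bp. For TIGAR, which lowers fructose 2,6-bisphosphate, the values were 1241, 1309 and 1307 bp, 753, 827 and 917 bp, 1639, 1005 and 1335 bp, and 1647, 922 and 1075 bp. In all 3 genes the treated parental libraries were lower than the untreated parental ones without overlap, as were the totals over all peaks (13.8 to 19.4 Mb against 20.7 to 25.5 Mb), and in none did the scaled values pass the test. The scaled difference with oxamate in parental cells was 0.16 at PFKFB3, -0.02 at PFKFB4 and -0.14 at TIGAR (log2).

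The enzymes of the middle of the pathway were read in the same order. GPI, which isomerises glucose 6-phosphate, held 4348, 4023 and 3173 bp, 2794, 3009 and 2465 bp, 4941, 3421 and 4722 bp, and 4068, 3528 and 4289 bp. The aldolase ALDOA held 1238, 1403 and 1558 bp, 1061, 1164 and 868 bp, 1939, 1476 and 1617 bp, and 1559, 951 and 1248 bp, and its paralogue ALDOC held 1506, 1456 and 1105 bp, 628, 990 and 876 bp, 1543, 1346 and 1601 bp, and 1443, 1518 and 1399 bp. For these 3 genes as well the parental groups did not overlap before scaling, and scaled differences were 0.01, 0.03 and -0.22 (log2).

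TPI1 held 3556, 3083 and 2768 bp, 1907, 2458 and 2744 bp, 3709, 3877 and 3052 bp, and 3798, 3145 and 3384 bp, and GAPDH held 3487, 3529 and 3374 bp, 2191, 3845 and 3158 bp, 4675, 4112 and 4467 bp, and 4570, 2308 and 4284 bp. At GAPDH, whose product uses the NAD+ that LDHA renews, the highest parental value was a treated library. PGAM1 held 1648, 1003 and 1106 bp, 577, 1103 and 899 bp, 2468, 1679 and 1353 bp, and 870, 926 and 2102 bp. Its untreated and treated libraries overlapped in both phenotypes.

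At the end of the pathway ENO1, the main enolase, held 4261, 4563 and 2847 bp, 1701, 3290 and 2330 bp, 5346, 4023 and 4519 bp, and 3261, 2937 and 3177 bp in the same order. ENO2 held 2063, 2593 and 2177 bp, 1704, 2346 and 1993 bp, 3247, 2979 and 2911 bp, and 3465, 2127 and 3076 bp. PKM held 3229, 3045 and 2368 bp, 1386, 2024 and 1801 bp, 5624, 3058 and 3255 bp, and 4674, 2763 and 3254 bp. ENO1 was the only one of the 30 genes with an unadjusted p below 0.05 for oxamate in resistant cells, with a scaled difference of -0.42 (log2, adjusted p = 1.00, limma).

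Over the 30 genes the median scaled difference with oxamate in parental cells was -0.10 (log2), against -0.01 over all genes tested, and 13 of the 30 were above 0. Summed over the 32 genes with placed starts, treated parental cells held 71.0% of the untreated covered bases within 1 kb of a start and 66.3% elsewhere in the windows, against 72.3% over all peaks. The same shares in resistant cells were 93.5%, 86.0% and 92.1%. In parental cells the mean covered bases of the pathway thus fell with those of the library. In resistant cells the untreated and treated sums overlapped within their SD, as did the library totals. Elsewhere in the windows the resistant sums were 43030 ± 6348 bp (mean ± SD) untreated and 37002 ± 7974 bp treated. Near a start they were 22777 ± 1805 bp and 21296 ± 3159 bp. The share was lowest elsewhere in the windows in both phenotypes, and whether it differed from the other shares was not tested. In resistant cells the median scaled difference with oxamate was -0.04 over the 30 genes, against 0.04 over all, and 12 were above 0. The median level of the 34 genes went from 59.2 to 49.9 bp per Mb in parental and from 66.3 to 57.8 in resistant cells. That of other protein-coding genes went from 40.4 to 39.7 and from 39.9 to 41.1. Whether the pathway differed from other genes as a set was not tested.

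In resistant cells 0 of 30 genes passed for oxamate, against 0% of all genes, with 1 at an unadjusted p below 0.05 by limma. In the interaction of phenotype and treatment 0 of 30 passed, against 0.0357% of all genes, with 2 (PFKP and PFKL) at an unadjusted p below 0.05 by limma. The interaction at PFKL was 0.95 (log2, 95% interval 0.37 to 1.52, adjusted p = 0.25, limma).

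**Figure D3:**
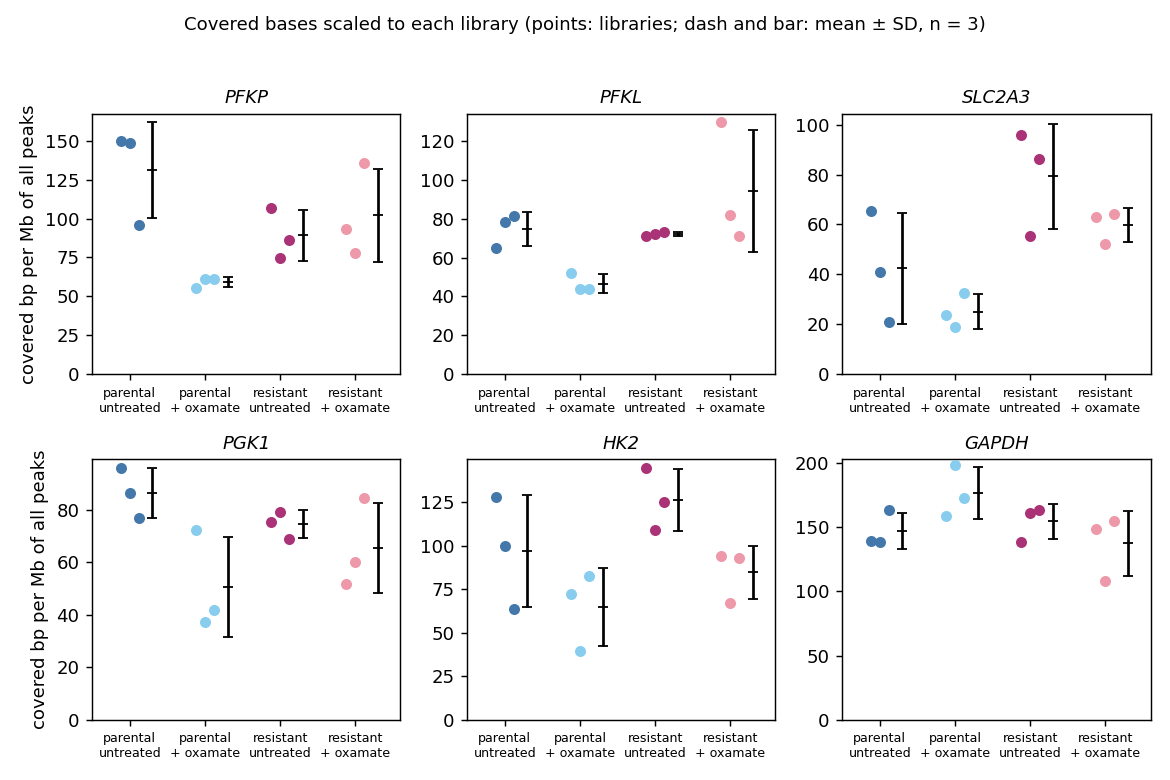
Covered bases per Mb of all bases covered in the library (vertical axis) for 6 genes, with 1 point per library, 3 per group, and the mean ± SD beside them. The mean of treated parental cells is the lowest of the 4 at PFKP, PFKL, SLC2A3, PGK1 and HK2 and the highest at GAPDH, and every treated parental library lies below all others at PFKP and PFKL.

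Between phenotypes, SLC2A3 and PFKL were higher in treated resistant than in treated parental cells, and SLC2A3 was also higher averaged over treatment. SLC2A3 encodes GLUT3, a glucose transporter of high affinity. Its window held 1636, 1044 and 432 bp in untreated parental, 324, 367 and 597 bp in treated parental, 3234, 1418 and 2357 bp in untreated resistant and 1929, 1112 and 1778 bp in treated resistant cells. Resistant and parental libraries did not overlap under oxamate and overlapped without it. The scaled difference was 1.13 under oxamate (log2, SE 0.307, 95% interval 0.47 to 1.79, adjusted p = 0.0351, limma) and 1.02 averaged over treatment (SE 0.217, 95% interval 0.56 to 1.49, adjusted p = 0.0142, limma). Untreated it was 0.91 (95% interval 0.26 to 1.57) and did not pass (adjusted p = 0.495, limma).

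PFKL was higher by 0.90 under oxamate (log2, SE 0.191, 95% interval 0.50 to 1.31, adjusted p = 0.0117, limma), and by 0.43 averaged over treatment, which did not pass (adjusted p = 0.0669, limma). PFKP stood at 0.70 under oxamate (adjusted p = 0.0524, limma) and at -0.52 untreated (95% interval -0.98 to -0.07, adjusted p = 0.64, limma). Under oxamate 2 of 30 (6.67%) were thus higher, against 7.09% of all genes, and 0 lower, against 2.02%. Averaged over treatment 1 of 30 (3.33%) was higher, against 5.17%, and 0 lower, against 1.92%. Untreated, 0 of 30 passed, against 0.0673% in either direction, with 2 at an unadjusted p below 0.05 by limma. The shares called lay near or below those of all genes.

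These calls depended on how libraries were made comparable. The call at SLC2A3 under oxamate was lost without treated parental replicate 1 (adjusted p = 0.0759) or 2 (0.0826) and without treated resistant replicate 1 (0.113), 2 (0.0544) or 3 (0.117, all limma), while the call averaged over treatment and that at PFKL held without each library in turn. With unscaled covered bases the median of all genes stood at 0.59 between treated resistant and treated parental cells (log2), 13 of the 30 genes were called higher, and 10161 genes were called higher against 86 lower, where scaling gave 1791 against 510. When the weaker peaks, those whose -log10 q lay under 3, were dropped, 3436 genes were called higher against 5169 lower, 6 glycolytic genes were called lower and none higher.

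**Figure D4:**
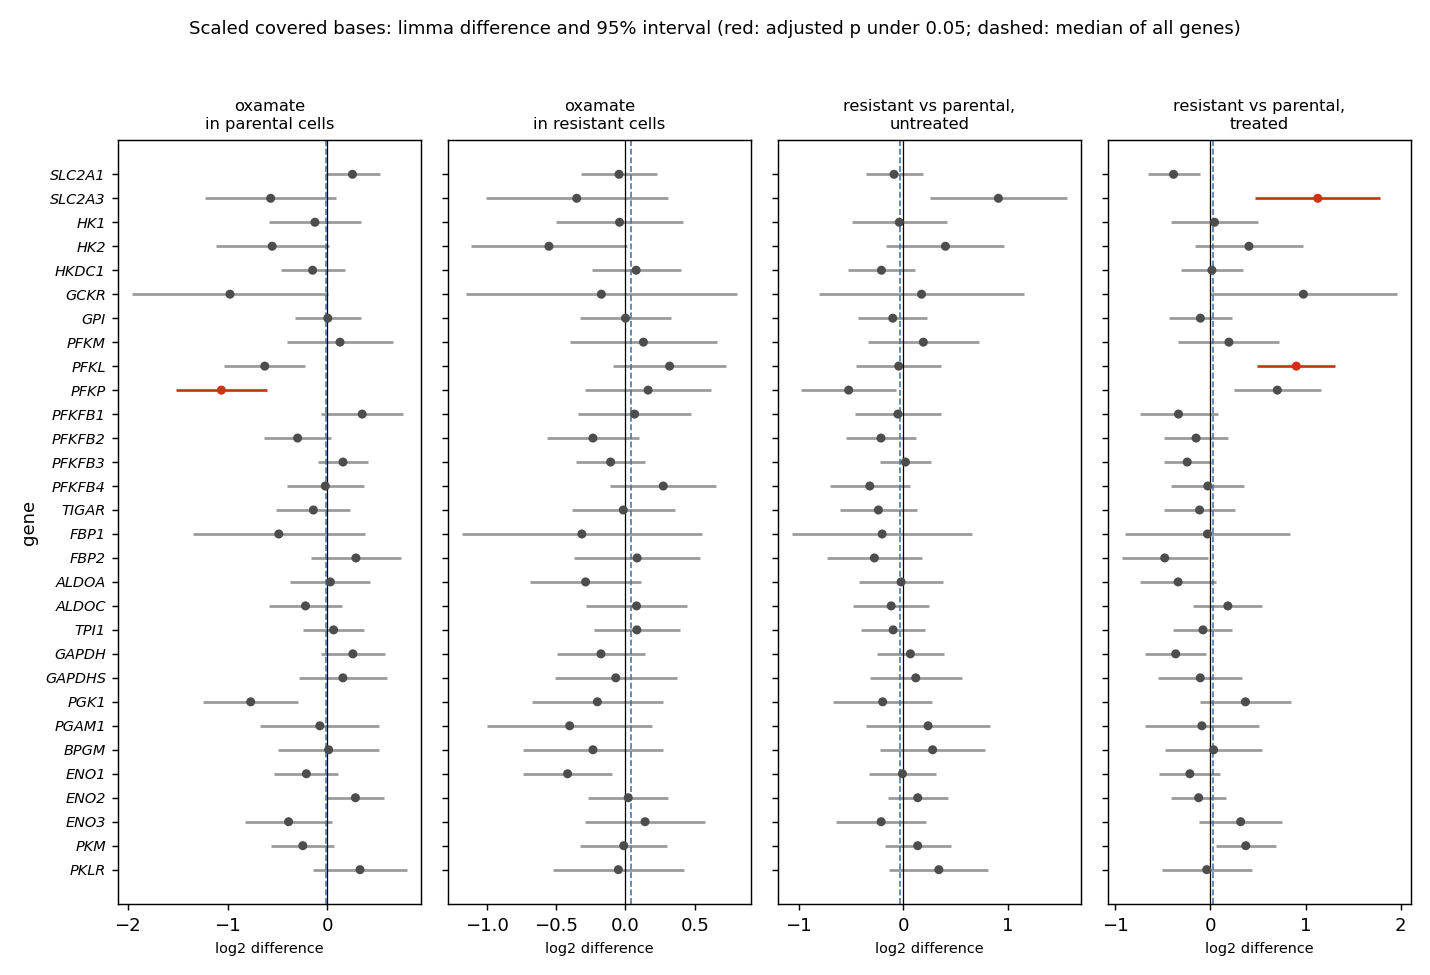
Difference in scaled covered bases (horizontal axis, log2) with its 95% interval from limma for the 30 genes tested, in 4 contrasts of 3 against 3 libraries, with adjusted p under 0.05 in red and the median of all genes dashed. PFKP (-1.06) is red for oxamate in parental cells, SLC2A3 (1.13) and PFKL (0.90) between treated resistant and treated parental cells, and none in the other panels.

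The strength of peaks at gene ends was compared by rank within each list. The lists differ in length and in width, and ranks shifted over all ends, with medians of 0.33 for oxamate in parental cells, -0.29 between phenotypes under oxamate and -0.17 averaged over treatment (log2). For each end with a peak within 1 kb in 12 of 12 libraries the log2 of the rank as a top percent was tested, and 29 of 68 glycolytic gene ends (42.6%, from 23 genes) qualified, against 29.7% of protein-coding gene ends. Between phenotypes a negative difference means that the peak stood nearer the top in resistant cells, and for oxamate that it stood nearer in treated cells. The 5′ ends of ALDOA and GPI moved nearer the top in resistant cells and the start of HK2 and the 3′ end of ENO2 further from it. No end passed for oxamate in either phenotype.

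The ALDOA start peak stood at the top 3.46%, 2.52% and 5.82% in untreated parental, 8.30%, 6.60% and 5.52% in treated parental, 0.906%, 2.64% and 1.502% in untreated resistant and 1.10%, 2.36% and 2.01% in treated resistant cells. Resistant libraries were nearer the top than parental ones without overlap under oxamate, and overlapped untreated. The difference was -1.95 under oxamate (log2, SE 0.459, adjusted p = 0.00934, limma) and -1.61 averaged over treatment (SE 0.324, adjusted p = 0.00181, limma), or -1.66 and -1.44 relative to the medians over all ends. With the authors' fold in place of the rank neither passed (adjusted p = 0.614 and 0.407, limma). Without treated resistant replicate 1 the first gave an adjusted p of 0.0762 by limma.

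The 5′ end of the GPI span stood at 3.52%, 1.52% and 5.13%, 8.61%, 4.22% and 3.75%, 1.08%, 1.32% and 2.36%, and 1.82%, 3.41% and 3.27% in the same order of groups. Its difference averaged over treatment was -0.96 (log2, SE 0.339, adjusted p = 0.0494, limma), or -0.79 relative to the median over all ends, and with the authors' fold it did not pass (adjusted p = 0.746, limma). It passed without untreated parental replicate 2, treated parental replicate 3, untreated resistant replicate 3 or treated resistant replicate 2, and was lost without any of the other 8 libraries, with adjusted p up to 0.155 by limma.

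The HK2 start stood at 32.7%, 13.0% and 9.48% in untreated parental, 31.2%, 8.93% and 24.7% in treated parental, 29.0%, 36.2% and 35.9% in untreated resistant and 36.0%, 36.7% and 38.7% in treated resistant cells. Treated resistant libraries were all further from the top than the parental ones. The difference averaged over treatment was 1.02 (log2, SE 0.275, adjusted p = 0.0134, limma), or 1.19 relative to the median over all ends, and without untreated parental replicate 3 it was 0.83 with an adjusted p of 0.0528 by limma. The rank of its strongest peak and the width of open chromatin did not run together at HK2, since 1935, 1356 and 1609 bp within 1 kb of its starts were covered in untreated resistant and 1253, 694 and 639 bp in untreated parental cells. Its start lay in an unbroken peak of 1850, 1356 and 1609 bp in untreated resistant libraries. In untreated parental replicates 2 and 3 the ranked peak was 414 and 441 bp wide, with a separate one beside it. Untreated parental replicate 1, with an unbroken peak of 1253 bp, stood at 32.7%. Narrow peaks of 431 bp in treated resistant replicate 2 and 182 bp in treated parental replicate 1 stood at 36.7% and 31.2%. The part of peak width in the rank difference was not tested.

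The peak at the 3′ end of ENO2, which overlaps ATN1, stood at 12.7%, 7.66% and 15.6%, 8.37%, 6.15% and 8.34%, 23.9%, 27.4% and 15.6%, and 23.5%, 15.2% and 24.5% in the same order of groups. The treated groups did not overlap. Its difference was 1.45 under oxamate (log2, SE 0.348, adjusted p = 0.0104, limma) and 1.18 averaged over treatment (SE 0.246, adjusted p = 0.00238, limma), or 1.74 and 1.36 relative to the medians over all ends, and the first was lost without treated resistant replicate 1 (adjusted p = 0.0656) or 3 (0.064, both limma). The ENO2 start itself overlapped between all groups, at 22.8% to 33.5%, 38.3% to 44.9%, 24.8% to 43.8% and 30.2% to 44.5%, apart from the pair of parental groups.

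Under oxamate 1 of 29 ends was further from the top, against 1.98% of all ends, and 1 nearer, against 9.31%. Averaged over treatment 2 were further, against 3.7%, and 2 nearer, against 12.4%. Untreated 0 passed, against 0.326% in either direction, with 4 at an unadjusted p below 0.05 by limma. For oxamate in parental cells 0 passed, against 0.265%, with 3 at an unadjusted p below 0.05 by limma, in resistant cells 0, against 0%, with 0 unadjusted, and in the interaction 0, against 0.0113%, with 0 unadjusted.

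**Figure D5:**
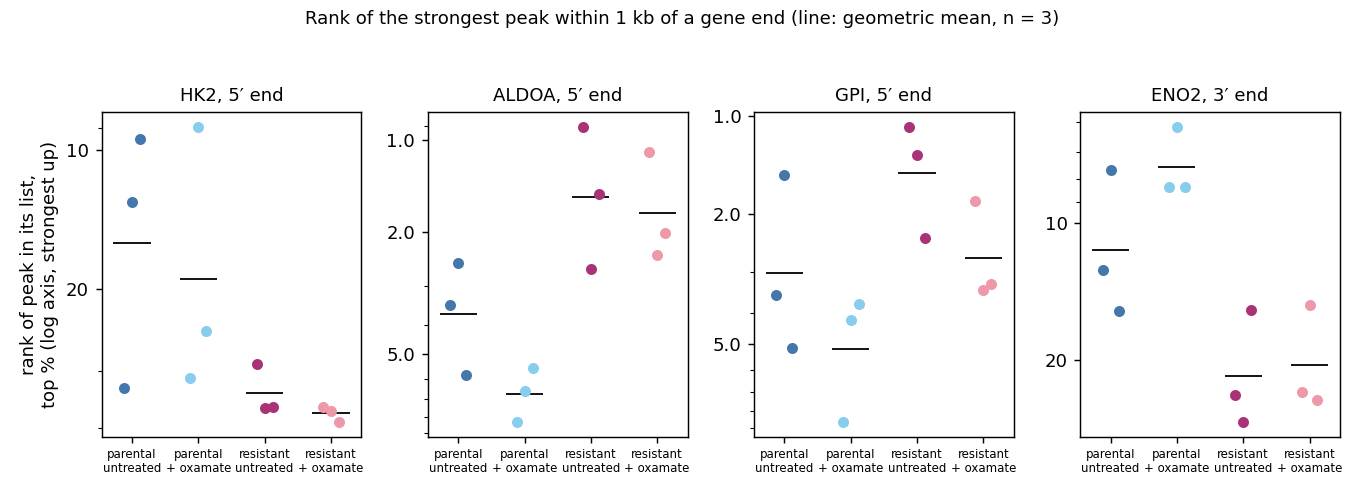
Rank of the strongest peak within 1 kb of 4 gene ends as a top percent of its list (log axis, strongest at the top), with 1 point per library and the geometric mean of each group of 3 as a line. ALDOA and GPI stand nearer the top in resistant than in parental cells on average, and HK2 and the 3′ end of ENO2 further from it.

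Presence and absence gave the finest view. A merged region or a gene end was counted as switched where 3 of 3 libraries of a group had a peak and 0 of 3 of the other. Such counts carry no p, since 3 against 3 libraries cannot go below an exact p of 0.1. With oxamate parental cells lost 3 of 93 regions (3.23%) in glycolytic windows, against 3.81% of all regions, and gained 0, against 0.483%. They lay in the bodies of SLC2A3 (chr12:7923125-7924000), PFKP (chr10:3122459-3122741) and PGK1 (chrX:78119374-78120122).

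In the PGK1 body a peak was present in 9 libraries, all but the treated parental 3, at 3.20 to 4.86 times the local background in the authors' fold. The SLC2A3 region had a peak in 3 untreated parental, 0 treated parental, 1 untreated resistant and 3 treated resistant libraries, at folds of 3.10 to 3.94. The PFKP region had a peak in 3 untreated parental libraries and 1 treated resistant library, at folds of 2.98 to 3.41. All 3 were weak peaks, none ranking nearer the top than 49.0% in any library.

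The 3′ end of PGK1 was the single glycolytic gene end to switch, and it did so in both phenotypes. A peak within 1 kb stood at the top 73.1%, 75.4% and 79.1% in untreated parental and 83.6%, 59.7% and 74.3% in untreated resistant libraries, and no treated library of either phenotype had one. This was 1 of 31 ends lost in parental cells (3.23%), against 1.86% of all ends, and 1 of 33 in resistant cells (3.03%), against 0.317%. None was gained in either, against 0.0905% and 0.233%. The corresponding region, chrX:78128925-78129908, overlaps TAF9B, and was the only one of 97 glycolytic regions (1.03%) lost with oxamate in resistant cells, against 0.59%, while 0 were gained, against 0.511%. In parental cells 2 of 3 untreated libraries had a peak in this region.

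Between phenotypes, untreated resistant cells lacked 3 of 102 regions (2.94%) that all untreated parental libraries had, against 1.04%, and gained 0, against 1.65%. These were the PFKP region above, one in ALDOA (chr16:30068887-30069129) and one in PFKL (chr21:44302122-44302914). The ALDOA region had a peak in 6 of 6 parental and 1 of 6 resistant libraries, at folds of 2.37 to 3.22. The PFKL region had a peak in 3 untreated parental, 1 treated parental, 0 untreated resistant and 2 treated resistant libraries, at folds of 2.56 to 3.36. The narrowest of the untreated parental peaks here, 93 bp in the PFKP region and 96 bp in the ALDOA region, were under the smallest widths of the untreated resistant lists (98 to 124 bp), whose part in these absences was not tested.

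Under oxamate resistant cells had 3 of 89 regions (3.37%) that treated parental cells lacked, against 5.82%, and lacked 1 (1.12%), against 1.79%. The 3 were the SLC2A3 and PGK1 bodies above and chr17:4959363-4959912 beyond the 3′ end of the muscle enolase ENO3. That ENO3 region had a peak in 2 untreated parental, 0 treated parental, 3 untreated resistant and 3 treated resistant libraries, at folds of 2.75 to 3.18. Its peaks were weak, none ranking nearer the top than 85.5%. The 1 lacking was a 116 bp region of PFKP, chr10:3071582-3071697, with a peak in 5 of 6 parental and 0 of 6 resistant libraries, at folds of 3.51 to 5.31. Its peaks were 78 to 93 bp wide, under the smallest width of any resistant list, which is 94 bp. No gene end switched between phenotypes, against 1.16% untreated and 3.18% under oxamate.

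Other genes of glucose handling that are not among the 34 were read from a list of 33, of which 26 could be tested. They comprise further glucose transporters, glucokinase, phosphoglucomutases, glucose synthesis enzymes and transcription factors of the pathway. With oxamate in parental cells 0 were higher and 1 lower, SLC2A11, a fructose and glucose transporter, by -0.96 (log2, adjusted p = 0.0288, limma), against 0.139% and 1.77% of all genes. Between treated resistant and treated parental cells SLC2A11 (1.14, adjusted p = 0.0055) and MLXIPL (0.63, adjusted p = 0.0244, limma), which encodes the glucose-sensing factor ChREBP, were higher and 0 were lower, against 7.09% and 2.02% of all genes. Averaged over treatment SLC2A11 was higher (0.63, adjusted p = 0.0206, limma), against 5.17% of all genes. In the other 3 contrasts 0 passed by limma, with 1, 0 and 3 at an unadjusted p below 0.05 for oxamate in resistant cells, phenotype untreated and the interaction.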

How the data were processed

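ATAC-seq had been performed on 12 libraries, 3 in each of 4 groups taken from the sample titles. The submitters' processing notes name Bowtie2 2.1.0, MACS2 and hg38, and per the study's methods mitochondrial, duplicate and multiply mapped reads were removed. Broad peaks were called by the authors per library, without pooling. The MACS2 version is not given in the sources used here. The lists deposited by the authors give positions, a score (not used), the fold over local background (a ratio), and -log10 of the p-value and q-value. The smallest -log10 q was close to 1.00, a q of 0.1. Read counts and depth are not given, so no count test was run and no counting interval is stated.

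Peaks off chromosomes 1 to 22 and X, 0.892% of all, were set aside. Covered bases were taken over the gene span ± 5 kb of RefSeq GRCh38.p14, a build whose coordinates are those of hg38, divided by the library's total and tested with limma 3.58.1 in R 4.3.3 (empirical Bayes, trend) on log2(bp per Mb + 5) for genes with a mean of at least 10 bp per Mb. Fold changes on this scale understate changes at low values. One model of 4 group means over 12 libraries (8 residual degrees of freedom) gave all contrasts, adjusted by Benjamini-Hochberg over all genes or ends tested. Regions were peaks merged over the 12 lists (overlap of 1 bp). Strand and starts came from RefSeq promoters, which matched 32 of the 34 genes, SLC2A3 and PFKFB2 being named without them. Functions were tested on simulated data.

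Same-numbered replicates of different groups deviated together with a correlation over 0.1 in 2 of 18 pairs, so the numbers were not used as pairs. No lists were duplicates, with base-pair Jaccard indices of 0.33 to 0.619 over 66 pairs. Values in each library are given for 20 genes listed by role and for each gene passing a test. Each switched region or end is given by the number of libraries with a peak. These rules, the 34 genes, the marker list and the list of other genes were chosen with earlier results of these data known. Alternatives covered scaling, pseudocounts, filters, peak strength and width, window, distance, the replicate block and leaving out each library.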

Additional observations from a re-analysis of the deposited data

How the results depend on the processing

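Over the alternatives tried, 504 counts stayed within 1.5 times the value reported and 84 did not, and of the calls at named genes 147 kept their side of the threshold, 31 lost it and 0 reversed. The cause was not tested, except where fewer peaks or libraries entered by construction. For covered bases, leaving them unscaled gave 6 genes lower with oxamate in parental cells, and 13 and 16 higher in resistant cells under oxamate and averaged over treatment. Peaks of -log10 q of at least 3 gave 0 lower for oxamate in parental cells, 0 higher and 6 lower for phenotype under oxamate, and 0 higher and 5 lower averaged. The top 45748 peaks of each list gave 1 higher and 2 lower under oxamate, and 0 higher and 2 lower averaged. Peaks of at least 124 bp gave 1 lower under oxamate and 2 higher averaged, and a window of 1 kb each side gave 2 higher averaged.

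For ranks, the authors' fold gave 6 ends further from the top under oxamate, and 7 further and 1 nearer averaged, and a distance of 5 kb gave 2 nearer under oxamate. With the replicate block 1 end was nearer averaged, since GPI gave an adjusted p of 0.0544 by limma, and no other call at a named gene changed (PFKP 0.0386). For switched regions, the stricter -log10 q gave 5 lost in parental cells, 0 lost in resistant cells, and 0 lost between phenotypes untreated and under oxamate. The top peaks gave 1 lost in parental cells, 1 gained and 0 lost in resistant cells and 1 lost between phenotypes untreated. Covering 50% of the region gave 6 lost in parental cells, 1 gained in resistant cells, 2 gained and 0 lost between phenotypes untreated and 8 gained and 2 lost under oxamate. For gene ends, the top peaks gave 0 lost in parental and 0 in resistant cells, the stricter q 0 lost in resistant cells and 1 gained between phenotypes under oxamate, and a distance of 5 kb 0 lost in resistant cells and 2 gained and 1 lost between phenotypes under oxamate.

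Leaving out each library in turn gave 0 to 2 genes lower for oxamate in parental cells and 1 to 3 higher for phenotype under oxamate. For ranks it gave 0 to 1 further and 0 to 1 nearer under oxamate, and 1 to 2 further and 1 to 2 nearer averaged. For regions, where 2 of 2 against 0 of 3 then counts, it gave 3 to 9 lost and 0 to 1 gained in parental cells, 1 to 4 lost and 0 to 2 gained in resistant cells, 3 to 6 lost and 0 to 1 gained between phenotypes untreated, and 3 to 12 gained and 1 to 2 lost under oxamate. For gene ends it gave 1 to 2 lost in parental cells and 0 to 2 gained between phenotypes under oxamate.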
